A study of Mus musculus with 12 samples.

Results

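The genes described encode mTOR complex subunits, the *Tsc1* and *Tsc2* brake on mTORC1, members of amino acid sensor families and the S6 kinase p70S6K. They are *Mtor*, *Rptor*, *Rictor*, *Mlst8*, *Deptor*, *Tsc1*, *Tsc2*, *Castor2*, *Sesn2* and *Rps6kb1*. They were chosen by symbol and by the known role of their products, with no measured value used in the rule. Earlier results of these data were known when the choice was made. All 10 were found among the 17007 genes of the deposited expression values, and all 10 were among the 14393 genes that passed the filter on low values and were tested. RNA had been sequenced from the livers of 12 mice in 4 groups of 3. The normal livers (NL) came from wild-type C57BL/6 mice that carried no tumor. The other 9 libraries were made from liver tumors of mice with floxed *Rictor* and *Tsc2* (*Rictor* fl/fl *Tsc2* fl/fl, strain C57BL/6J), in which c-MYC, MCL1 and Cre plasmids had been delivered by hydrodynamic tail vein injection, so that the tumors were *c-MYC/MCL1/Rictor*KO *Tsc2*KO. All 3 tumor groups therefore carried the same oncogenes and the same pair of deletions, and no tumor with intact *Rictor* or *Tsc2* was analysed here. Tumor-bearing mice were gavaged with vehicle, with MLN0128 at 1 mg/kg/day, or with everolimus at 1 mg/kg/day. The labels give 6 doses per week over 3 weeks, begun on day 6 after injection, and harvest at 3.7 weeks. The methods of the study give the same schedule, whereas its results give 3 days of treatment for the sequenced tumors. The libraries were used as labelled. Cre could act only in cells that took up the plasmid, and vessels, stroma and immune cells of the host may have kept functional *Rictor* and *Tsc2*. Which cells were recombined was not measured here.

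mTOR is a serine/threonine kinase that works in a pair of complexes. mTORC1 is defined by RAPTOR, the product of *Rptor*, and drives protein synthesis through p70S6K and 4EBP1, whereas mTORC2 is defined by RICTOR and phosphorylates AKT. mLST8 belongs to both complexes, and DEPTOR binds mTOR in both and restrains its activity. The TSC1/TSC2 complex switches off the GTPase RHEB, the direct activator of mTORC1, and AKT releases this brake by phosphorylating TSC2. Amino acids act through a separate branch on the lysosome, in which Sestrin2 binds leucine and the CASTOR family includes an arginine sensor. Without their amino acid these sensors hold back GATOR2 and so the Rag GTPases that recruit mTORC1. *Castor2* is grouped with the sensors by family, and arginine binding by its product was not measured. *Sesn2* is also a well-known target of ATF4, the transcription factor of the amino acid stress response, which mTORC1 itself can increase. MLN0128 blocks the mTOR kinase in both complexes, and everolimus, an analog of rapamycin, inhibits mTORC1 only in part.

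Levels are given in the authors' FPKM, which divide the fragments on a gene by its length and by the size of the library, and each library held 17221621 to 25184859 reads on genes, with a median of 18674088. The deposited values had also been scaled against each other, with factors of 0.585 to 0.595 in NL and 1.10 to 1.37 in tumors on top of library size, which moves every gene of the tumor to normal liver comparison and is described below. *Xist* was abundant and 4 Y-linked genes had 0 reads in MLN0128 replicates 1 and 2, and the other 10 libraries showed the opposite, so that MLN0128 and sex are partly mixed. MLN0128 replicate 3 was free of this. As a check of the tissue, the summed FPKM of 9 hepatocyte marker genes ran from 84520 to 103600 in NL and from 2252 to 8553 in the tumors. In bulk tissue, fewer cells of a type and less RNA per cell cannot be told apart.

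In vehicle-treated tumors, the sensors *Sesn2* and *Castor2* stood far above normal liver, and with the deposited scaling *Deptor*, *Tsc2* and *Rictor* stood below it. With plain library totals and a common FPKM sum, *Deptor* (-0.30 and -0.05), *Tsc2* (-0.19 and 0.00) and *Rictor* (0.12 and 0.36) were not called. *Mtor*, *Rptor* and *Rps6kb1*, which encode the kinase, the mTORC1 scaffold and the S6 kinase, showed no called change in this comparison with the deposited scaling, whereas all 3 were called higher with plain library totals or a common FPKM sum. With limma's moderated test at an adjusted p under 0.05, 4 of the 10 genes were higher in vehicle-treated tumors than in NL (*Sesn2*, *Castor2*, *Tsc1* and *Mlst8*) and 3 were lower. Of all genes tested, 36.0% were called higher and 33.0% lower in the same comparison, so that 7 changed genes of 10 was near the background of 69.0%. The 3 vehicle libraries lay wholly above those of NL for 4 genes and wholly below for 3, against 39.0% and 35.1% of all genes (74.1% in either direction). The treat test of limma, which asks whether a change is larger than 1.5-fold, called *Sesn2* and *Castor2* higher and *Deptor* and *Tsc2* lower, as it did 15.9% of all genes upward and 16.8% downward. *Castor2* was under the 0.5 FPKM of the filter in each NL library and passed it through the tumors, so its calls against NL are descriptive only.

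With MLN0128, 2 of the 10 genes were lower than in vehicle-treated tumors, *Castor2* and *Sesn2*, where 17.1% of all genes were called lower. *Tsc2* was the 1 gene called higher, where 14.9% of all genes were. With everolimus, *Castor2* was the 1 gene called lower and 0 were called higher, with backgrounds of 6.04% and 3.77%. At an unadjusted p under 0.05, 2 genes were lower and 1 higher with everolimus, against 13.5% and 13.3% of all genes at that threshold. Between the drugs, *Castor2* was lower with MLN0128 and the other 9 genes were not called, against 5.54% of all genes lower and 3.99% higher. The treat test called *Castor2* lower with MLN0128 and 0 of the 10 genes higher, against 1.65% and 0.479% of all genes. It called 0 of the 10 with everolimus (0.0347% of all genes higher and 0.570% lower) and 0 between the drugs (0.00695% higher and 0.0347% lower).

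The separation of libraries was wider than the calls. For *Rictor*, *Mlst8*, *Deptor* and *Tsc2*, all MLN0128 libraries were above all vehicle libraries, and for *Castor2* and *Sesn2* all were below, 4 and 2 of 10 genes against 22.1% and 23.4% of all genes. For *Rptor*, *Rictor*, *Deptor* and *Tsc2*, all everolimus libraries were above all vehicle libraries, and for *Castor2* and *Sesn2* all were below, against 17.7% and 14.8% of all genes. Between the drugs, MLN0128 was wholly below everolimus for *Rptor* and *Castor2* and wholly above for 0 genes, against 15.2% and 12.5%. The fold changes of all 10 genes are shown by comparison in the plot of fitted values, and their FPKM in the plot of values by library.

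**Figure D1:**
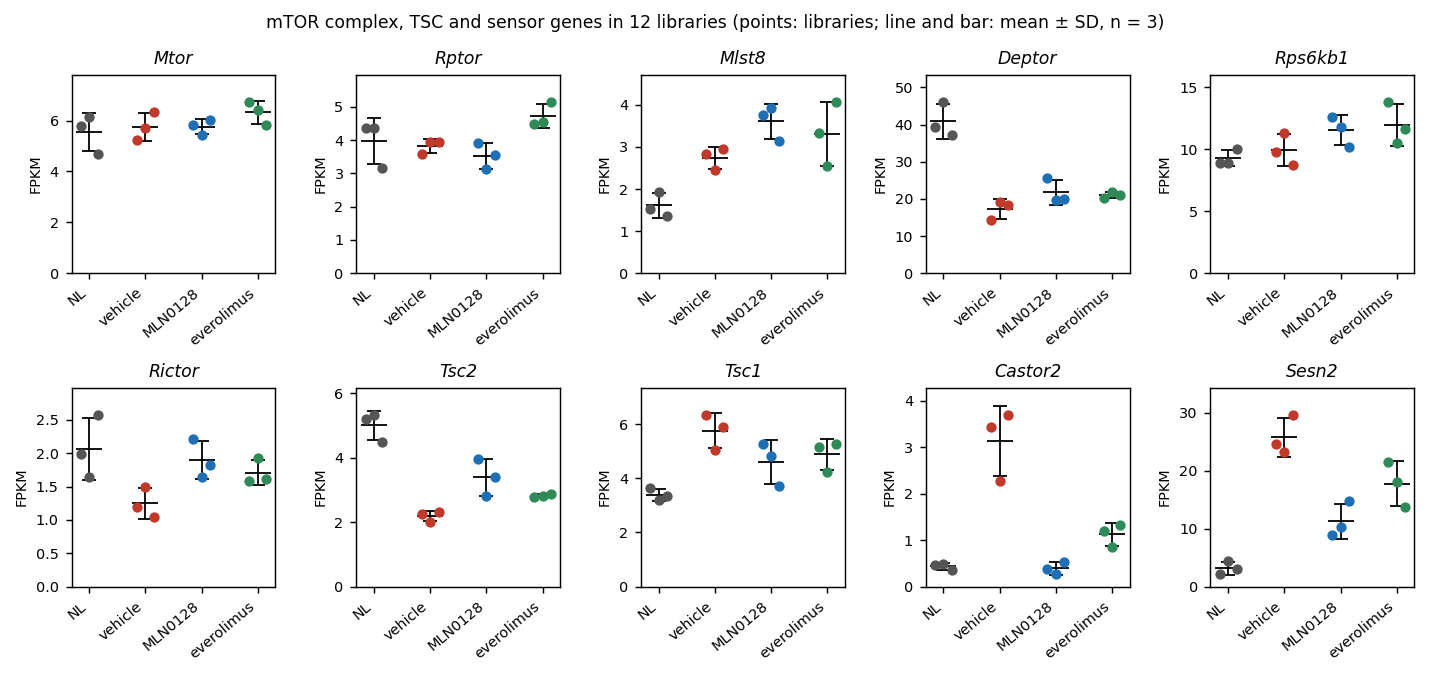
FPKM (linear axis from 0) of the 10 genes in each library, with the mean and SD of the 3 libraries of a group as a line and bar. *Castor2* and *Sesn2* are high in vehicle-treated tumors and called lower with MLN0128, and with everolimus *Castor2* is called lower and *Sesn2* is not, *Tsc2* is low but present in all 9 tumors, and *Mtor* overlaps across the 4 groups.

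The genes deleted in the tumors are given first. Their values count reads over the whole gene, not the floxed exons, and so cannot check the deletion itself. *Rictor* lies at chr15:6708379-6800401 on GRCm38, on the plus strand. Its FPKM was 1.99, 1.65 and 2.57 in NL and 1.19, 1.5 and 1.05 in vehicle-treated tumors. The 3 vehicle libraries were below all 3 NL libraries, but the RNA was not absent: 415 to 536 reads fell on *Rictor* in each. The group means were 2.07 ± 0.465 in NL and 1.25 ± 0.230 with vehicle (SD, n = 3), a ratio of 1.66, and the log2 fold change on the log2(FPKM + 1) scale was -0.44 (SE 0.135, limma, adjusted p = 0.0115). This call was lost without NL replicate 3, the highest value (adjusted p = 0.0524), and the direction turned to 0.12 with plain library totals and to 0.36 after rescaling each library to a common FPKM sum. Set against *Rptor* in the same library, a ratio that no single factor per library can move, *Rictor* was 0.377 to 0.813 of *Rptor* in NL and 0.266 to 0.379 with vehicle, so that the groups met at the edge.

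In the treated tumors, *Rictor* read 2.21, 1.65 and 1.82 FPKM with MLN0128 and 1.58, 1.93 and 1.62 with everolimus. All 6 of these libraries were above the highest vehicle library. The difference to vehicle was 0.37 for MLN0128 (SE 0.135, limma, adjusted p = 0.0584) and 0.27 for everolimus (SE 0.135, adjusted p = 0.220), and neither was called. Against NL, the differences were -0.08 with MLN0128 (adjusted p = 0.611) and -0.17 with everolimus (adjusted p = 0.274), with overlapping libraries, so that *Rictor* was not called below normal liver in either treated group. The MLN0128 difference to vehicle passed the threshold without vehicle replicate 2 (0.44, adjusted p = 0.0462), without NL replicate 3 (adjusted p = 0.0421) and with plain library totals (0.49, adjusted p = 0.0204). *Rictor* relative to *Rptor* was 0.514 to 0.564 with MLN0128, above its range with vehicle, and 0.315 to 0.424 with everolimus, which overlapped it.

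*Tsc2* lies at chr17:24595816-24632630 on the minus strand, where 693 bases of its exons overlap exons of *Pkd1* on the opposite strand. Its FPKM was 5.21, 5.32 and 4.50 in NL, 2.24, 2.01 and 2.31 in vehicle-treated tumors, 3.96, 2.81 and 3.40 under MLN0128 and 2.78, 2.82 and 2.87 under everolimus. All 9 tumors were below all normal livers, and all 6 treated tumors were above all vehicle-treated tumors. Vehicle-treated tumors held 408 to 518 reads on *Tsc2*, and their mean was 2.19 ± 0.157 against 5.01 ± 0.445 FPKM in NL, a ratio of 2.29. The log2 fold change was -0.91 (SE 0.115, limma, adjusted p = 2.46e-05). It was -0.19 with plain library totals (adjusted p = 0.218) and 0.00 at a common sum (adjusted p = 0.984), although relative to the median of all genes it stayed between -0.81 and -1.04 under all 4 scalings.

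*Tsc2* rose with MLN0128 by 0.46 on the log2 scale (SE 0.115, limma, adjusted p = 0.0115), from a mean of 2.19 to 3.39 FPKM. The call held in each of the scalings tried and was lost without MLN0128 replicate 1, the highest library (0.36, adjusted p = 0.0533), and with MLN0128 replicate 3 alone (0.47, adjusted p = 0.0630). With everolimus *Tsc2* differed from vehicle by 0.26 (adjusted p = 0.169), and the difference between the drugs, 0.19 (SE 0.115), had a 95% interval from -0.06 to 0.44. Against NL, *Tsc2* remained lower with MLN0128 (-0.46, adjusted p = 0.00354) and with everolimus (-0.65, adjusted p = 3.26e-04). Residual RNA from host cells, hepatocytes without Cre and transcripts that lack only the deleted exons cannot be told apart here.

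*Tsc1*, the partner that stabilises TSC2, was not deleted and moved the other way. It lies at chr2:28641228-28691167 on the plus strand. Its FPKM was 3.64, 3.22 and 3.34 in NL, 6.34, 5.06 and 5.91 in vehicle-treated tumors, 5.27, 4.83 and 3.72 under MLN0128 and 5.18, 4.24 and 5.28 under everolimus. Each tumor library was above each normal liver, and the drug groups overlapped with vehicle. *Tsc1* was higher with vehicle than in NL by 0.62 (SE 0.132, limma, adjusted p = 0.00133), and it was called higher with MLN0128 (0.34, adjusted p = 0.0354) and everolimus (0.42, adjusted p = 0.0136) as well. Its differences to vehicle were -0.28 with MLN0128 (95% interval -0.57 to 0.01) and -0.20 with everolimus (-0.49 to 0.09). Within a library, the FPKM of *Tsc2* was 1.35 to 1.65 times that of *Tsc1* in NL and 0.353 to 0.397 times with vehicle. This ratio, which does not depend on a single factor per library, was 0.582 to 0.914 under MLN0128 and 0.537 to 0.665 under everolimus, above vehicle and below NL in each treated tumor.

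The kinase had the narrowest range of group means among the 10 genes, 5.55 to 6.33 FPKM. *Mtor*, at chr4:148448611-148557683 on the plus strand, read 5.79, 6.15 and 4.70 FPKM in NL, 5.22, 5.69 and 6.34 in vehicle-treated tumors, 5.82, 5.44 and 6.02 under MLN0128 and 6.73, 6.41 and 5.84 under everolimus. The 4 groups overlapped. The log2 fold change from NL to vehicle was 0.05 with a 95% interval from -0.20 to 0.30, that from vehicle to MLN0128 0.00 (-0.25 to 0.26) and that from vehicle to everolimus 0.12 (-0.13 to 0.37). With the deposited scaling its change from NL to vehicle lay within 0.01 of the median of all genes, and under the other scalings it stayed within 0.19 of that median. It was called higher with plain totals (0.81, adjusted p = 1.32e-04) and at a common FPKM sum (1.15, adjusted p = 8.87e-05), where that median was 0.622 and 1.001.

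*Rptor* encodes the scaffold that brings substrates to mTORC1 and lies at chr11:119602905-119899576 on the plus strand. Its FPKM was 4.38, 4.38 and 3.16 in NL, 3.58, 3.96 and 3.95 in vehicle-treated tumors, and 3.92, 3.12 and 3.54 under MLN0128. With everolimus it was 4.50, 4.55 and 5.15, above every library of the other 3 groups. The difference between everolimus and vehicle was 0.25 (SE 0.125, limma, adjusted p = 0.232). MLN0128 and everolimus differed by -0.34 (SE 0.125) at an unadjusted p of 0.0185 and an adjusted p of 0.105. None of the comparisons of *Rptor* was called with the deposited scaling, whereas from NL to vehicle it was called with plain totals (0.68, adjusted p = 6.94e-04) and at a common FPKM sum (1.02, adjusted p = 2.90e-04).

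*Mlst8*, whose product stabilises the kinase domain, had the lowest level in NL after *Castor2*. It lies at chr17:24473551-24479078 on the minus strand, and 22.5% of its exon bases overlap exons of *Bricd5* on the opposite strand, whose reads cannot be told apart unless strand was used. It read 1.52, 1.94 and 1.37 FPKM in NL and 2.83, 2.45 and 2.95 with vehicle. With MLN0128 it read 3.77, 3.92 and 3.14, and with everolimus 3.33, 2.54 and 4.07. All 9 tumors were above all normal livers, and the MLN0128 libraries were also above the vehicle libraries. The log2 fold change was 0.52 from NL to vehicle (SE 0.145, limma, adjusted p = 0.00694), 0.82 from NL to MLN0128 (adjusted p = 3.00e-04) and 0.72 from NL to everolimus (adjusted p = 8.76e-04). The differences to vehicle, 0.30 with MLN0128 (adjusted p = 0.138) and 0.19 with everolimus (adjusted p = 0.436), were not called. The MLN0128 difference was called at 0.43 with plain library totals (adjusted p = 0.026) and at 0.58 with a common FPKM sum (adjusted p = 0.0191).

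*Deptor* had the highest FPKM of the 10 genes in NL and stood above 89.1% of all tested genes there. It lies at chr15:55112317-55259271 on the plus strand. Its values were 39.3, 46.1 and 37.2 FPKM in NL, 14.2, 19.1 and 18.4 in vehicle-treated tumors, 25.5, 19.6 and 20.1 under MLN0128 and 20.3, 21.9 and 21.1 under everolimus. Every tumor was below every normal liver, and every treated tumor was above every vehicle-treated tumor by a small margin. The mean fell from 40.9 ± 4.65 to 17.2 ± 2.65 FPKM (SD, n = 3) from NL to vehicle, a ratio of 2.37, with a log2 fold change of -1.20 (SE 0.141, limma, adjusted p = 1.35e-05). The change was -0.30 with plain library totals (adjusted p = 0.0920) and -0.05 at a common sum (adjusted p = 0.815). Relative to *Mtor* in the same library, *Deptor* was 6.79 to 7.92 in NL and 2.72 to 3.36 with vehicle, so that *Deptor* RNA was lower against *Mtor* RNA whatever single factor is applied to a library. The proteins were not measured here. The RNA ratio was 3.34 to 4.38 under MLN0128 and 3.02 to 3.61 under everolimus. The differences to vehicle in FPKM were 0.32 with MLN0128 (SE 0.141, adjusted p = 0.105) and 0.29 with everolimus (adjusted p = 0.216) on the log2 scale. The MLN0128 difference was called under the other 3 scalings, at 0.54 with quantile normalization (adjusted p = 0.0172), 0.47 with plain totals (0.0341) and 0.57 at a common FPKM sum (0.0401).

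**Figure D2:**
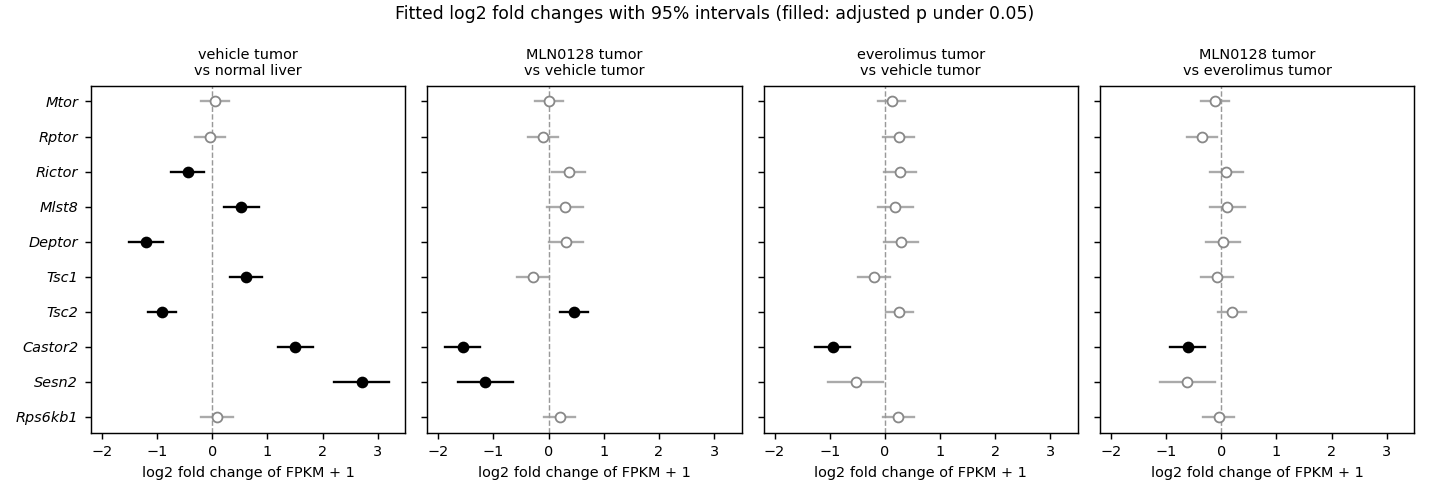
Fitted log2 fold change of FPKM + 1 for each gene in 4 comparisons, with 95% intervals as lines and filled points where limma's adjusted p was under 0.05. From NL to vehicle 7 points are filled, with those of *Rictor*, *Deptor* and *Tsc2* below 0. The place of *Rictor* turned above 0 with plain library totals or a common FPKM sum, and the points of *Castor2* are filled in all 4 panels.

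Among the 10 genes, *Castor2* and *Sesn2* had the largest changes from NL to vehicle and from vehicle to MLN0128. Other sensor genes are counted below, and not all of them shared this pattern. *Castor2* encodes a protein of the CASTOR family and lies at chr5:134099711-134144343 on the plus strand. *Sesn2* encodes the leucine sensor Sestrin2 and lies at chr4:132492032-132510501 on the minus strand. Both were high in vehicle-treated tumors and lower with MLN0128, so their proximal promoters are printed for comparison, from RefSeq's windows on GRCm38.p6 and only up to the annotated start of each gene. The capitals mark CG dinucleotides, 12 in *Sesn2* (chr4:132510502-132510706, minus strand) and 20 in *Castor2* (chr5:134099498-134099710, plus strand).
Sesn2: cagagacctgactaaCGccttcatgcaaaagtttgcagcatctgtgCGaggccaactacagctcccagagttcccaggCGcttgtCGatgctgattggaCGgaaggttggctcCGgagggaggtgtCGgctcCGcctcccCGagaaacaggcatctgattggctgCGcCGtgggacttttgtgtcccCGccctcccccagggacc
Castor2: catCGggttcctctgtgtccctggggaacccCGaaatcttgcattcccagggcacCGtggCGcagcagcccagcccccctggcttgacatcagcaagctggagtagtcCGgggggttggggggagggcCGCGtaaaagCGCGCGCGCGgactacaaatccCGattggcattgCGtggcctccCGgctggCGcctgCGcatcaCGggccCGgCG
Over the first 200 bases of the windows, *Castor2* had 17 CG dinucleotides and *Sesn2* 12, against a median of 4 over the 32851 promoter windows of the table, and of all windows 87.6% and 77.9% had as many or fewer. Promoter windows were found for 9 of the 10 genes, all but *Deptor*. Neither CACGTG, the E-box core bound by MYC with MAX, nor TGATGNAA, the core of the element bound by ATF4 with C/EBP factors, was found on either strand in any of the 9 windows of 300 bases. CACGTG was in 7.2% and TGATGNAA in 4.0% of all windows. The letters are absent from these windows only, which says nothing of sites elsewhere.

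*Castor2* read 0.466, 0.492 and 0.355 FPKM in NL and 3.43, 2.27 and 3.69 with vehicle. With MLN0128 it read 0.382, 0.261 and 0.525, and with everolimus 1.19, 0.856 and 1.32. The vehicle libraries were above all 9 others, the everolimus libraries lay between, and the MLN0128 libraries overlapped with NL. These levels rested on 28 to 41 reads per library in NL, 362 to 651 in vehicle-treated tumors, 42 to 95 under MLN0128 and 170 to 249 under everolimus. Each NL library was under the 0.5 FPKM of the filter on low values. *Castor2* therefore passed that filter through the tumors, mainly those with vehicle or everolimus, where it was higher. Between NL and vehicle the mean FPKM rose 7.15-fold, from 0.438 ± 0.0728 to 3.13 ± 0.756 (SD, n = 3), and the log2 fold change of FPKM + 1, which understates the change of a gene near 1 FPKM, was 1.51 (SE 0.147, limma, adjusted p = 3.19e-06).

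With MLN0128, *Castor2* was 8.04-fold lower than with vehicle by mean FPKM, with a log2 fold change of -1.56 (SE 0.147, limma, adjusted p = 6.95e-05). In the treat test its adjusted p was 0.00333. It was -1.42 with MLN0128 replicate 3 alone (adjusted p = 0.00673), a library with 30 reads on *Xist*. With everolimus it was 2.79-fold lower and the log2 value was -0.95 (SE 0.147, limma, adjusted p = 0.00316). The difference between MLN0128 and everolimus was -0.61 (SE 0.147, adjusted p = 0.0279), and this difference lost its call without MLN0128 replicate 1 (adjusted p = 0.0894), without MLN0128 replicate 2 (0.0702), without everolimus replicate 1 (0.0770), without everolimus replicate 3 (0.117) and in a fit of the 2 groups alone (0.0778). With MLN0128 replicate 3 alone it was -0.47 (adjusted p = 0.275). Against NL, *Castor2* stayed higher with everolimus (0.56, adjusted p = 0.00501), whereas the difference with MLN0128 was -0.05 with a 95% interval from -0.37 to 0.27.

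*Sesn2* read 2.11, 4.33 and 3.09 FPKM in NL and 24.6, 23.2 and 29.6 with vehicle. With MLN0128 it read 8.89, 10.3 and 14.7, and with everolimus 21.5, 18.1 and 13.7. Each vehicle library was above all treated tumors, each tumor was above all normal livers, and the drug groups overlapped. The rise from NL to vehicle was 8.12-fold by mean FPKM and 2.71 on the log2 scale (SE 0.228, limma, adjusted p = 1.05e-06), larger than that of 97.9% of all tested genes. *Sesn2* fell with MLN0128 by 1.14 on the log2 scale, 2.28-fold by mean FPKM (SE 0.228, adjusted p = 0.00337). With MLN0128 replicate 3 alone, the highest of the 3, the difference was -0.76 and was not called (adjusted p = 0.127). With everolimus the difference to vehicle was -0.53 (SE 0.228, adjusted p = 0.164). The drugs differed by -0.62 (95% interval -1.12 to -0.12, adjusted p = 0.11), and without MLN0128 replicate 3 by -0.81 (adjusted p = 0.0486). Unlike *Castor2*, *Sesn2* stayed called above NL with MLN0128 (1.56, adjusted p = 6.78e-05) as well as with everolimus (2.18, adjusted p = 5.01e-06).

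*Rps6kb1* encodes p70S6K, the kinase that carries the mTORC1 signal to the ribosomal protein RPS6, and lies at chr11:86498871-86544805 on the minus strand. Its FPKM was 8.88, 8.92 and 10 in NL, 9.75, 11.3 and 8.75 in vehicle-treated tumors, 12.6, 11.8 and 10.2 under MLN0128 and 13.8, 10.5 and 11.6 under everolimus. Vehicle overlapped with NL and with both drugs, and the treated tumors were all above NL. The log2 fold change was 0.09 from NL to vehicle (95% interval -0.20 to 0.37), 0.20 from vehicle to MLN0128 (-0.09 to 0.48) and 0.24 from vehicle to everolimus (-0.04 to 0.53), none of them called. With plain totals and a common FPKM sum it was called higher from NL to vehicle, at 0.91 and 1.23 (adjusted p = 1.93e-05 and 3.25e-06), and with MLN0128, at 0.34 and 0.45 (adjusted p = 0.0394 and 0.0223). Against NL it was called higher with everolimus (0.33, limma, adjusted p = 0.0385) and not with MLN0128 (0.28, adjusted p = 0.0666). In all, 5 genes were called higher with everolimus than in NL and 2 lower, against 35.9% and 34.3% of all genes, and 6 and 2 had all their libraries above or below, against 38.5% and 35.4%. With MLN0128 it was 3 higher and 2 lower, against 37.1% and 35.5%, and 4 above and 2 below, against 38.8% and 36.3%.

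The comparison of tumors with NL depended on how the libraries were scaled. Reads on the top 10 genes by count made up 19.6% to 22.5% of each NL library and 6.91% to 8.94% of each tumor library. With the deposited scaling the median of the log2 fold changes over all genes from NL to vehicle was 0.058, and with quantile normalization 0.037. It was 0.622 when the recovered reads were divided by plain library totals and 1.001 when the FPKM of each library were rescaled to a common sum (as in TPM), and the 10 genes moved up with it, to 7 called higher and 0 lower under each of the latter pair. Of all genes, 61.3% were called higher and 15.2% lower with plain totals, and 67% and 11.7% at a common FPKM sum, so that 7 of 10 was near the background there too. *Sesn2*, *Castor2*, *Tsc1* and *Mlst8* were called higher under all 4 scalings, between 2.65 and 3.96, 1.37 and 2.69, 0.49 and 1.74, and 0.40 and 1.57. Of these, *Castor2* had passed the filter on low values through the tumors only. *Rptor* went from -0.03 to 0.68 and 1.02 and *Rictor* from -0.44 to 0.12 and 0.36. Relative to the median of all genes, *Rictor* stayed between -0.50 and -0.64 and *Deptor* between -0.84 and -1.26. Between treated and vehicle-treated tumors, the median ran from -0.009 to 0.192 with MLN0128, and *Castor2* and *Sesn2* stayed called lower with MLN0128 under all 4 scalings.

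**Figure D3:**
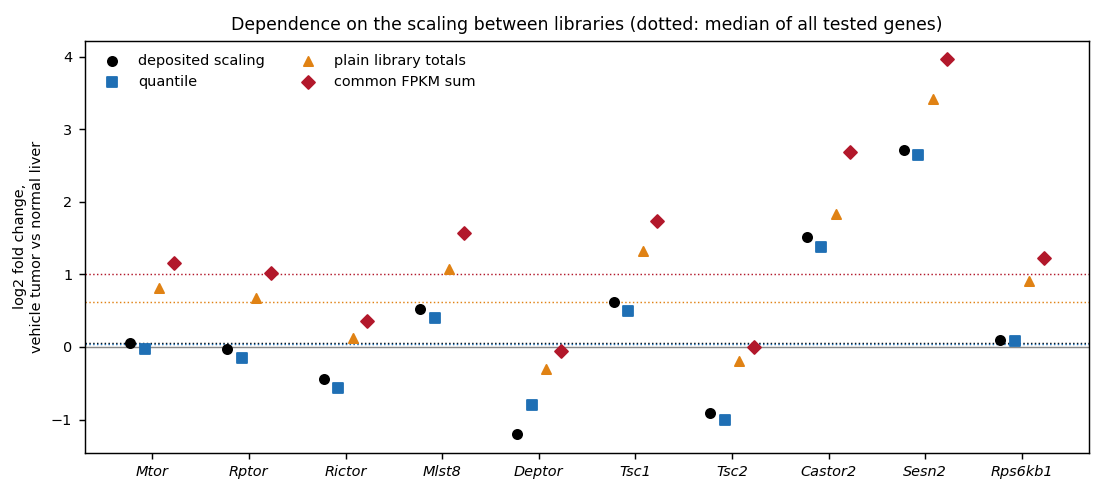
Log2 fold change of the 10 genes from NL to vehicle (vertical axis, log2) under 4 scalings between libraries, with the median of all tested genes as a dotted line for each. *Rictor*, *Deptor* and *Tsc2* stay below the dotted line of their scaling under each, while their own values run from -0.56 to 0.36, from -1.20 to -0.05 and from -1.0 to 0.00.

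Other genes of the pathway were counted by list, with the 10 genes left out. In the comparison of vehicle with NL, the lists moved up with the scaling as the 10 genes did. With the deposited scaling 2 of 9 sensor and folliculin genes were lower, and 0 with plain totals or a common FPKM sum. Of all genes, 33.0%, 15.2% and 11.7% were lower under these scalings. Among 9 amino acid sensors and folliculin genes, 0 were higher and 6 lower with MLN0128 (median log2 fold change -0.622, against -0.009 for all genes). Of all genes, 14.9% were called higher and 17.1% lower there. With everolimus 1 of the 9 was lower, against 6.04% of all genes. *Sesn3*, a paralog of *Sesn2*, fell from 7.40, 4.03 and 10.1 FPKM with vehicle to 1.83, 1.94 and 2.43 with MLN0128 (-1.35, SE 0.223, limma, adjusted p = 0.00130). *Fnip2*, a folliculin partner, fell by 0.82 with MLN0128 and by 0.55 with everolimus (adjusted p = 0.0698 at a common FPKM sum), and *Lars*, the leucyl-tRNA synthetase, fell by 0.72 with MLN0128, a call that was lost at a common FPKM sum (adjusted p = 0.0917) and with quantile normalization (adjusted p = 0.12). In vehicle-treated tumors 4 of the 9 were higher than in NL, among them *Lars* (1.91), *Sesn3* (1.23) and *Sesn1* (0.89), and 2 were lower, against 36.0% and 33.0% of all genes. With MLN0128 replicate 3 alone, 1 was higher and 4 were lower than with vehicle, where 4.72% of all genes were higher and 7.5% lower. At a common FPKM sum 2 were higher and 3 lower, against 24.7% and 8.82%.

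The Rag GTPases and Ragulator, which hold mTORC1 on the lysosome, showed 1 of 9 higher and 6 lower with MLN0128 (median -0.599). Of all genes, 14.9% were called higher and 17.1% lower in that comparison. *Lamtor1*, the membrane anchor of Ragulator, fell by 1.03 with MLN0128 (adjusted p = 1.47e-04) and by 0.43 with everolimus (adjusted p = 0.0345, and 0.0655 at a common FPKM sum). *Rragd* rose 48.8-fold by mean FPKM from NL to vehicle (4.16, SE 0.121, limma, adjusted p = 5.10e-10) and fell by 0.82 with MLN0128. That fold rests on 0.403 to 0.663 FPKM in NL, near the 0.5 FPKM of the filter. *Rragb* was the gene that rose, from 0.971, 0.924 and 1.39 FPKM with vehicle to 5.36, 3.35 and 5.87 with MLN0128, the highest value being in replicate 3 (1.46, SE 0.235, adjusted p = 0.00110). In vehicle-treated tumors 5 of the 9 were higher than in NL and 3 lower, where 36.0% and 33.0% of all genes were, with *Lamtor4* (-2.05) and *Lamtor2* (-1.23) the most reduced, of which *Lamtor2* was -0.05 and not called at a common FPKM sum. In MLN0128 replicate 3, *Lamtor1* read 9.84 and *Rragd* 14.9 FPKM, against 19.7 to 24.1 and 24.1 to 30.2 with vehicle, while *Rragb* went the other way. The GATOR and KICSTOR genes pass the sensors' signal to the Rags. With MLN0128 the largest called changes among them were those of *Sec13* (-0.77), *Wdr24* (0.54) and *Itfg2* (0.48). Of the 11 tested, 4 were higher and 1 was lower with MLN0128, against 14.9% and 17.1% of all genes. The higher calls were not kept with MLN0128 replicate 3 alone, where 1 library stands for the group. With everolimus 0 of 11 were called, against 3.77% of all genes higher and 6.04% lower. From NL to vehicle 3 were higher and 1, *Kptn* (-0.94), was lower, which turned to 0.02 at a common FPKM sum. Both counts from NL to vehicle were below the shares of all genes, 36.0% and 33.0%.

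*Akt1s1*, which encodes the mTORC1 inhibitor PRAS40, rose from NL to vehicle (0.92, adjusted p = 5.85e-05) and fell with MLN0128 (-0.45, limma, adjusted p = 0.0205), a call lost under each of the other 3 scalings (adjusted p from 0.0585 to 0.230). Of the mTORC2 subunits, *Mapkap1* fell with MLN0128 by 0.55 (adjusted p = 0.00160, and 0.0529 at a common FPKM sum) and the difference to everolimus was -0.47, and from NL to vehicle *Prr5* was higher (0.79) and *Mapkap1* lower (-0.28, adjusted p = 0.0209), which turned to 0.58 and 0.86 with plain totals and a common FPKM sum. In the group that folds and assembles mTOR, 4 of 8 genes were higher and 1 was lower in vehicle-treated tumors than in NL. Of all genes, 36.0% were higher and 33.0% lower there. *Ruvbl2* was at 2.77, *Ruvbl1* at 2.11 and *Telo2* at 1.2. With MLN0128 *Telo2* alone was called (0.55), where 14.9% of all genes were called higher. The other 3 scalings called 4 of the 8 higher, against 17.6% to 24.7% of all genes. Among *Rheb*, *Rhebl1* and *Tbc1d7*, *Rhebl1*, a close relative of the mTORC1 activator RHEB, rose from NL to vehicle (0.71), with MLN0128 (1.13, adjusted p = 1.51e-04) and with everolimus (0.59, adjusted p = 0.0130). It read 0.0917 to 0.329 FPKM in NL, under the 0.5 FPKM of the filter, which it passed through the tumors.

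Downstream of mTORC1, 1 of 12 genes was lower and 0 were higher with MLN0128, against 17.1% and 14.9% of all genes. *Eif4ebp1*, which encodes 4EBP1, fell from a mean of 86.2 to 35.7 FPKM (-1.25, SE 0.226, limma, adjusted p = 0.00205). Quantile normalization called 5 of the 12 higher and 1 lower, against 17.6% and 15.1% of all genes. The other pair of scalings called 2 higher and 1 lower. The shares were 23.2% and 12.6% with plain totals and 24.7% and 8.82% at a common FPKM sum. With everolimus 0 of 12 were called, against 3.77% of all genes higher and 6.04% lower. From NL to vehicle *Eif4ebp1* (1.51) and *Grb10* (3.92) rose and *Lpin1* (-2.99) fell. There 4 of the 12 were higher and 3 lower, against 36.0% and 33.0% of all genes. Among 16 tested upstream kinases and stress inputs, 2 were higher and 3 lower with MLN0128, against 14.9% and 17.1% of all genes. *Ddit4*, an mTORC1 inhibitor induced by stress, was at -2.21, *Pik3cb* at -1.08 and *Akt1* at -0.70. *Ddit4* had risen by 4.40 from NL to vehicle. With everolimus, *Irs1* was the 1 gene called, 0.46 higher, where 3.77% of all genes were called higher. This call was lost with plain totals (limma, adjusted p = 0.0611).

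Among 19 genes of the ATF4 stress response, a list chosen because *Sesn2* belongs to it, 15 were higher and 2 lower from NL to vehicle (median 2.153), against 36.0% and 33.0% of all genes. With MLN0128, 15 were lower and 0 higher than with vehicle (median -2.128), against 17.1% and 14.9% of all genes. With MLN0128 replicate 3 alone 12 were lower, against 7.5% of all genes. *Chac1* fell from a mean of 27.1 to 0.486 FPKM (-4.23, SE 0.224, limma, adjusted p = 1.99e-06), *Nupr1* by 3.93 and *Trib3* by 3.58. With everolimus 3 of the 19 were lower and 0 higher (median -0.481), against 6.04% and 3.77% of all genes, with *Slc7a11* at -2.86, *Nupr1* at -2.69 and *Ddit3* at -1.11. Between the drugs, 11 of the 19 were lower with MLN0128 than with everolimus, against 5.54% of all genes, in the fit of all 4 groups. With only these 2 groups in the fit, 5 of all tested genes were lower (0.0347%), so most of the 11 calls need the variance pooled over the 4 groups. Fewer were lower with MLN0128 replicate 3 alone, where 1 library stands for the group. The comparisons of the lists share the vehicle libraries with those of *Sesn2* and *Castor2* and are not separate evidence for them. The lists were chosen with earlier results of these data known, so their counts beside those of all genes are descriptive only.

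**Figure D4:**
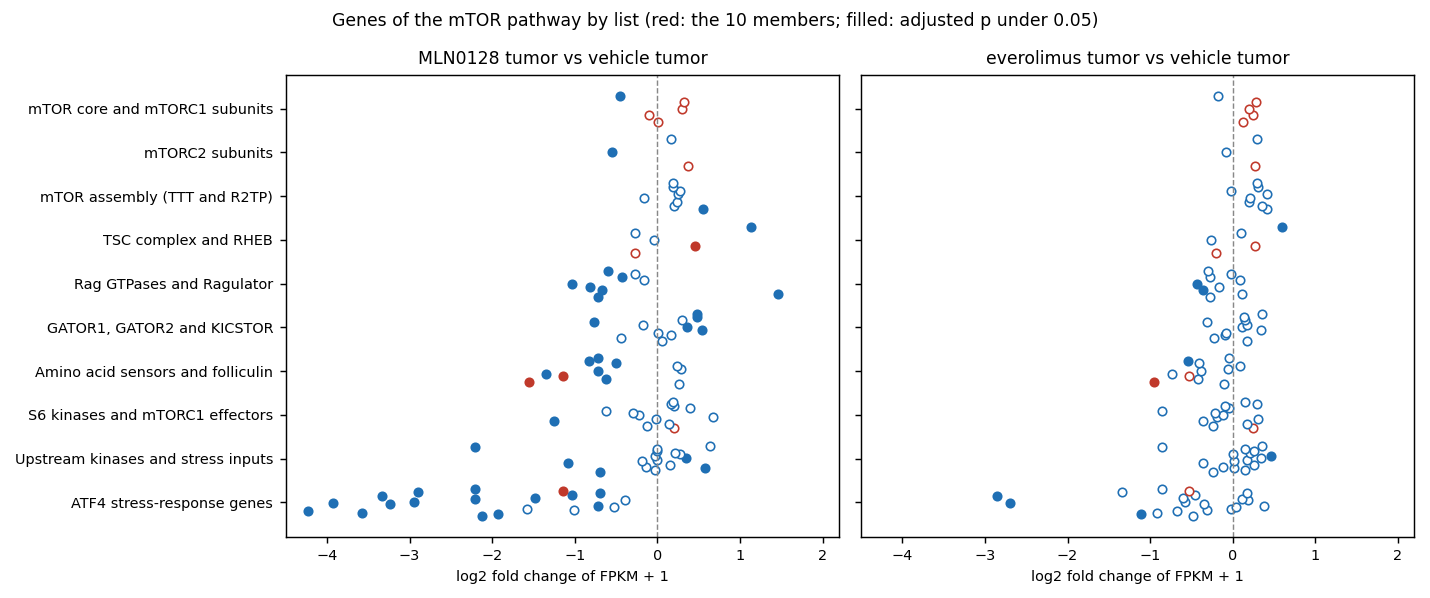
Log2 fold change of FPKM + 1 against vehicle for each tested gene of 10 lists with MLN0128 (left) and everolimus (right), with the 10 genes in red and filled points where limma's adjusted p was under 0.05. With MLN0128 the ATF4 list, with 16 of 20 genes lower when *Sesn2* is counted, lies to the left of 0, and with everolimus 3 of its 20 genes are lower.

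The genes whose pattern over the 12 libraries was nearest to that of *Castor2*, by the root-mean-square difference of centred log2(FPKM + 1), were *Sesn3* (0.176), *Mapk6* (0.208) and *Ralb* (0.210), where the median gene differed by 0.755. *Sesn3* averaged 2.33 FPKM in NL, 7.18 with vehicle, 2.07 with MLN0128 and 3.68 with everolimus, the same order as *Castor2*. Nearest to *Sesn2* were *Ppp1r14b* (0.311), *Brca1* (0.313) and *Rps6kl1* (0.316), against a median of 1.06. Nearest to *Deptor* were *Srpr* (0.116), *Ptprg* (0.116) and *Sash1* (0.141), against a median of 0.623. These distances describe the 12 libraries, which share their scaling, and were not tested.

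Markers of other cells also moved between the groups. The summed FPKM of 8 macrophage and Kupffer cell markers ran from 274 to 333 in NL, 91.1 to 132 in vehicle-treated tumors, 38.5 to 54.9 under MLN0128 and 63.6 to 185 under everolimus. That of 8 endothelial markers ran from 63.9 to 78.7 in NL and from 11.7 to 22.7 in the tumors, and that of 8 stellate cell and fibroblast markers from 61.5 to 84.6 in NL and 31.8 to 85.8 in the tumors. The sum of 8 proliferation genes was far higher in tumors, from 2.23 to 7.90 in NL, 131 to 153 in vehicle-treated tumors, 63.1 to 214 under MLN0128 and 135 to 189 under everolimus. The sum of 5 cholangiocyte markers was 36.8 to 92.5 in vehicle-treated tumors, 10.3 to 28.2 under MLN0128 and 17.2 to 61.8 under everolimus. The sum of 5 erythroid markers was 289 to 653 in NL, 35.2 to 88.5 in vehicle-treated tumors, 16.1 to 40.6 under MLN0128 and 107 to 131 under everolimus. Of these 5, 2 were called higher with everolimus than with vehicle, where 3.77% of all genes were. Between the drugs 4 were lower under MLN0128, against 5.54% of all genes, in the fit of all 4 groups. With only these 2 groups in the fit, 5 of all tested genes were lower. None of the defining markers found was at 0 in all 3 libraries of a group. The part of these cells in the levels of *Tsc2*, *Rictor* and the sensors was not tested.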

How the data were processed

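RNA from 3 normal livers and 9 liver tumors (3 vehicle, 3 MLN0128, 3 everolimus) was analysed as labelled. The deposited values are linear FPKM, rounded by the authors, who had reads counted per Ensembl gene and took symbols from org.Mm.eg.db. The submitters' processing notes name GRCm38 and FastQC 0.11.7, and the aligner is not given in the sources used here. The authors called changed genes with edgeR. Because FPKM are not counts, log2(FPKM + 1) was fitted with limma 3.58.1 in R 4.3.3, with 12 libraries in 1 model and an intensity trend. The filter on low values asked for 0.5 FPKM or more in 3 or more libraries, and 4 rows with duplicated symbols were left out. P-values were two-sided and adjusted by Benjamini-Hochberg over 14393 genes, and genes were called under 0.05. The MLN0128 to vehicle comparison was also run on simulated counts. These were drawn from vehicle means in all groups with a common spread, so they do not cover the scaling of NL or the mix of sexes.

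Reads were recovered from FPKM and GENCODE M21 exon lengths. In each library 98.0% to 98.8% of the values under 20 reads fell within 0.1 of a whole read, where chance gives 20.0%. Replicate numbers did not pair the libraries. The members and lists were chosen with earlier results of these data known, although the rule for the members used no measured value. Beside the 10 members, up to 3 called genes per list with the largest change were named, and the 3 genes nearest in pattern to *Sesn2*, *Castor2* and *Deptor*. *Kics2* of the KICSTOR list was not found among the symbols. Alternatives covered the pseudocount, filter, scaling, test, libraries in the fit, replicate block and each library left out. Where nothing says otherwise, p-values rest on 1 variance per gene, pooled over the 4 groups of 3 mice and moderated across genes. The number of mice limits the precision. Between MLN0128 and everolimus, 575 genes were called higher and 797 lower in this fit. With only these groups in the fit it was 1 and 5.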

Additional observations from a re-analysis of the deposited data

How the results depend on the processing

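Between NL and vehicle, 4 genes were called higher and 3 lower. With plain library totals or a common FPKM sum it was 7 higher and 0 lower, where the median of all genes moved from 0.058 to 0.622 and 1.001 and 61.3% and 67% of all genes were higher and 15.2% and 11.7% lower, and the treat test called 2 higher. The lower count ran from 2 to 3 and the higher count stayed at 4 when libraries were left out. Of all genes, 30.9% to 33.5% were lower and 32.9% to 36.4% higher in those fits, and 15.9% were higher with treat. With MLN0128 against vehicle, the count of 1 higher became 2 with quantile normalization and with voom, 5 with each of the plain totals and a common FPKM sum, 0 with treat, 0 with MLN0128 replicate 3 alone and 0 to 2 when libraries were left out. Of all genes 14.9% were called higher with the deposited scaling, 17.6% with quantile normalization, 15.7% with voom, 23.2% with plain totals, 24.7% at a common FPKM sum and 4.72% with MLN0128 replicate 3 alone. The count of 2 lower became 1 with treat and 1 with MLN0128 replicate 3 alone. Of all genes, treat called 0.479% higher and 1.65% lower with MLN0128, and 9.19% to 15.9% were higher when libraries were left out. With everolimus against vehicle, the count of 1 lower became 0 with treat, where 0.57% of all genes were lower. Between the drugs, the count of 1 lower became 0 with treat, with a fit of 2 groups and with MLN0128 replicate 3 alone, and ran from 0 to 2 when libraries were left out. Of all genes, 0.0347% were lower between the drugs with treat and likewise in the fit of 2 groups, and 0.667% to 6.87% when libraries were left out. The causes were not tested.

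Directions turned mainly among genes that were not called, on the log2 scale. From NL to vehicle, *Mtor* became -0.03 with quantile normalization, -0.05 without NL replicate 3 and -0.01 without vehicle replicate 3. *Rptor* became 0.68 with plain totals, 1.02 at a common FPKM sum and ran from -0.16 to 0.03 when libraries were left out, with 0.03 without NL replicate 1 or 2, and *Rictor*, which had been called lower, 0.12 and 0.36 under those scalings. With MLN0128 against vehicle, *Rptor* became 0.02 with plain totals and 0.11 at a common FPKM sum. Between the drugs, *Mtor* became 0.01 and 0.11, *Tsc1* 0.04 and 0.15 and *Rps6kb1* 0.09 and 0.20 under the same scalings, and *Rps6kb1* 0.07 with quantile normalization. *Tsc1* became 0.04 and *Rps6kb1* 0.03 without MLN0128 replicate 3, and *Rps6kb1* 0.05 without everolimus replicate 1. The values with a library left out ran from -0.16 to 0.04 for *Tsc1*, from -0.13 to 0.05 for *Rps6kb1* and from -0.03 to 0.23 for *Mlst8*. *Mlst8* became -0.03 without everolimus replicate 2 and -0.04 with MLN0128 replicate 3 alone, and *Deptor* -0.08 without MLN0128 replicate 1 and -0.07 with MLN0128 replicate 3 alone.

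The replicate number was also tried as a block. The 18 pairs of libraries with the same number had correlations of their deviations from -0.289 to 0.148, 1 of them over 0.1, and 0 of 12 libraries were closest to their own number, so they share only a number. With the replicate block the counts stayed at 4 higher and 3 lower from NL to vehicle, 1 and 2 with MLN0128, 0 and 1 with everolimus, and 0 and 1 between the drugs. Of all genes, 35% were higher and 32.3% lower from NL to vehicle in that fit, and 13.4% and 15.2% with MLN0128. With everolimus the shares were 2.24% and 4.54%, and between the drugs 2.59% and 3.06%. The pseudocounts, filters and prior variance left all counts within 1.5 times. At these depths *Castor2* rested on 28 to 41 reads in NL, which limits its low end.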
